A study of Mus musculus with 12 samples.

Results

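A set of 10 genes of Min6 cells, a mouse insulinoma line that stands in for pancreatic beta cells, was followed through a change of culture: the histone demethylases Kdm3a, Kdm4b, Kdm4c, Kdm5b, Kdm5c and Kdm6b, and the collagen hydroxylases P4ha1, P4ha2, Plod1 and Plod2. They were chosen by name, as oxygen-using enzymes known from studies of low oxygen, and with earlier results of these data known. Shares of called genes among the 10, given below beside those of all rows, are therefore no independent test of the set. All 10 of the 10 genes had a row of their own, 1 probe set each, among 35556 rows. Of these rows, 21789 carried exactly 1 symbol and named 19938 genes. The 12 arrays fell into 3 conditions with 4 arrays each. CC cells stayed in DMEM with 15% fetal calf serum at 20% oxygen for all 3 periods of 5 days. DC cells spent the first 5 days in that medium and then 10 days without serum at 5% oxygen, in DMEM-F12 with apo-transferrin, progesterone, putrescine and selenite. RC cells spent 5 days as CC, 5 days as DC, and then returned to serum and 20% oxygen for the closing 5 days. The series was made to look at conditions that affect Hes3, a transcriptional repressor. Medium, serum, supplements and oxygen changed together, so their parts in any difference cannot be told apart. The 4 arrays of a condition came from a single experiment with 1 cell line, and p-values here measure the spread between these samples only.

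The demethylases belong to the Jumonji (JmjC) family and the 4 hydroxylases to the collagen-modifying branch of the same enzyme class. Both use molecular oxygen, iron and 2-oxoglutarate: a demethylase oxidises the methyl group of a histone lysine until it leaves, and a collagen hydroxylase adds a hydroxyl group to proline or lysine of a new collagen chain in the endoplasmic reticulum. Several of the genes are textbook targets of the hypoxia-inducible factors (HIFs), so that a cell short of oxygen makes more transcript of an enzyme that needs it. Beta cells are not a main source of fibrillar collagen, which fibroblasts make.

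Values below are deposited log2 levels, differences are log2 differences of condition means with limma's standard error (SE), and a gene was called where its limma p, adjusted over all 35556 rows, was under 0.05. Array medians ran from 7.92 to 8.05. DC 4 and RC 3 (arrays are named by condition and replicate number) had the narrowest spread of values. Their interquartile ranges were 2.44 and 2.42, against 2.47 to 2.75 on the others, with DC 2 at 2.47. RC 3 correlated least with the rest of its group (mean r over all rows 0.976, against 0.989 to 0.990 for the other RC arrays). DC 4 did not: its mean r was 0.991, against 0.990 to 0.993 for the other DC arrays. For the 10 genes, values without DC 4 or RC 3 are given beside the results that they move. For the related lists, calls gained without DC 4 are given. Of the 14 beta cell markers measured, 13 lay above the median of all values, and the mean over the 14 was 11.68 to 11.71 on CC, 11.70 to 11.80 on DC and 11.56 to 11.71 on RC arrays. Of the 14, 2 were called, higher in DC than in CC and lower in RC than in DC: Slc30a8, the zinc transporter of insulin granules (0.31 and -0.45, adjusted p = 0.0404 and 0.0092), and the transcription factor Nkx2-2 (0.29 and -0.34, adjusted p = 0.0186 and 0.0174). Against CC, the call of Slc30a8 was lost without any 1 of 9 arrays and that of Nkx2-2 without CC 1, CC 4 or DC 4, and against DC that of Nkx2-2 without RC 1 or RC 4. Their part in the changes of the 10 genes was not tested. Fibroblast markers were above that median for 4 of 10 genes, endothelial and immune markers for 1 of 8, and exocrine and ductal markers for 1 of 5. Without DC 4, Cd68 of the endothelial and immune markers was called higher in DC than in CC. The mean fibroblast marker level was 7.30 to 7.49 on CC, 7.39 to 7.67 on DC and 7.38 to 7.74 on RC arrays, and 0 of 10 were called in any comparison (2 at an unadjusted p under 0.05 in DC against CC, 0 in the others). In bulk RNA fewer cells of a type and less RNA per cell cannot be told apart.

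In DC against CC, Kdm3a, Kdm4b and P4ha1 rose, and the other 7 genes were not called. That is 3 of 10 called higher and 0 called lower, where 6.64 percent of all rows were called, 2.31 percent higher and 4.32 percent lower. All but Kdm5b of the 10 genes lay above the median of all values. With only rows above that median tested, the same 3 were called, beside 847 rows higher and 1751 lower. These come from fewer rows than the 823 and 1537 called among all rows, so the shares there are larger. By class, 2 of 6 demethylases and 1 of 4 collagen hydroxylases rose. In RC against DC the same 3 genes fell and 0 rose, where 2.63 percent of all rows were called, 1.45 percent higher and 1.18 percent lower. RC against CC gave 0 calls by limma (2 at an unadjusted p under 0.05), where 0.796 percent of all rows were called, 0.121 percent higher and 0.675 percent lower. The median difference of the 10 genes was 0.21 in DC against CC, -0.27 in RC against DC and -0.11 in RC against CC, and that of all rows was 0.04, -0.01 and 0.03. Each pair of these comparisons shares 4 arrays, so a rise against CC and a fall from DC both use the DC arrays.

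**Figure D1:**
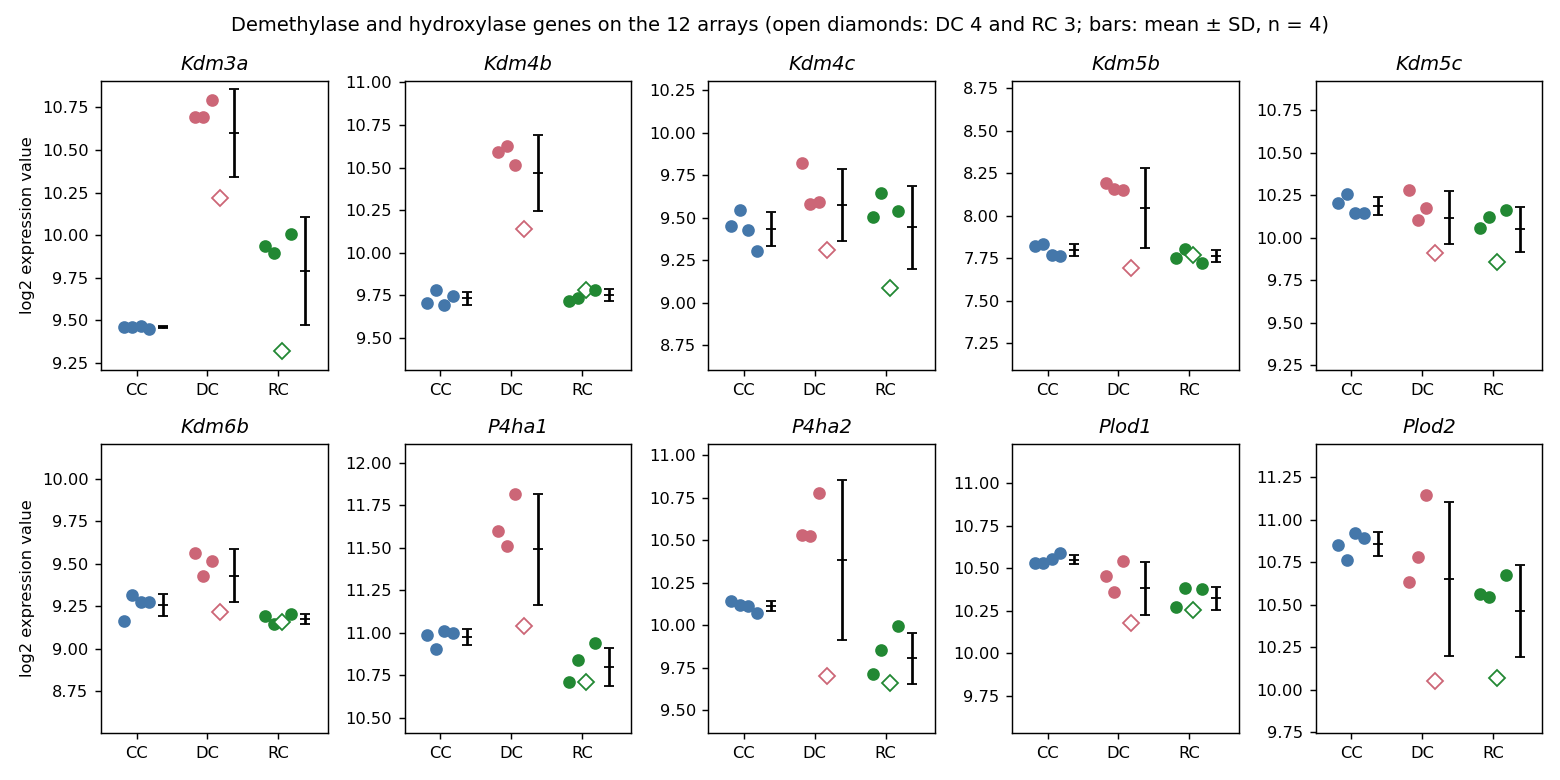
Log2 level (vertical axes) of each of the 10 genes on each of the 12 arrays, grouped by condition along the horizontal axis; points are single arrays (open diamonds DC 4 and RC 3), bars are mean ± SD (n = 4), and each gene has its own axis. The DC points of Kdm3a, Kdm4b and P4ha1 lie above all their CC points, and DC 4 is the lowest DC point of every gene.

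Kdm3a, which removes methyl groups from mono- and dimethylated lysine 9 of histone H3, changed the most. Its level (probe set 10545308) was 9.46, 9.46, 9.46 and 9.45 on CC 1 to CC 4. On DC 1 to DC 4 it was 10.69, 10.69, 10.79 and 10.22. On RC 1 to RC 4 it was 9.94, 9.90, 9.32 and 10.00. The CC arrays were nearly identical, the DC arrays lay above all the others, and RC 1, RC 2 and RC 4 lay between CC and DC while RC 3 fell below CC. The DC mean of 10.60 ± 0.26 (SD, n = 4) exceeded the CC mean of 9.46 ± 0.01 (SD, n = 4) by 1.14 ± 0.15 (SE), a 2.21-fold difference with an adjusted p of 0.00052. From DC to RC it fell by 0.81 on the log2 scale (SE 0.15, adjusted p = 0.011), to a mean of 9.79 ± 0.32 (SD, n = 4). That last call was lost when only the DC and RC arrays entered the fit (adjusted p = 0.0713).

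Kdm4b, a demethylase of trimethylated lysines 9 and 36 of histone H3, had the smallest p of the 10 genes in both comparisons with DC. The CC arrays read 9.70, 9.78, 9.69 and 9.75 (probe set 10446084). The DC arrays read 10.59, 10.63, 10.51 and 10.14, and the RC arrays 9.71, 9.73, 9.78 and 9.78. All 4 DC arrays stood above the 8 others, and the RC arrays overlapped the CC arrays. Its rise in DC was 0.74 ± 0.09 (SE), or 1.67-fold, with an adjusted p of 0.00037. In RC it fell by 0.72 on the log2 scale (SE 0.09, adjusted p = 0.00099). RC minus CC was 0.02 ± 0.09 (SE), with a 95% interval from -0.18 to 0.22. Kdm3a and Kdm4b kept both calls without any 1 of the 12 arrays, with adjusted p up to 0.0438.

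Kdm4c, the close relative of Kdm4b with the same histone marks, was not called. It read 9.45, 9.54, 9.43 and 9.30 on CC arrays, 9.82, 9.58, 9.59 and 9.31 on DC arrays, and 9.50, 9.65, 9.08 and 9.54 on RC arrays (probe set 10505587). The 3 groups overlapped, and DC minus CC was 0.14 ± 0.13 (SE), adjusted p = 0.482. Without DC 4 the difference was 0.23 (limma adjusted p = 0.407). The within-array difference of Kdm4b and Kdm4c went from 0.24 to 0.44 on CC arrays to 0.77 to 1.04 on DC arrays, without overlap. The change of Kdm4b thus exceeded that of Kdm4c by 0.59 (95% interval, from limma, 0.34 to 0.84, exact two-sided permutation p = 0.0286). This is the smallest p that 4 against 4 arrays can give, and over 12 such contrasts it adjusts to 0.0686. From DC to RC the contrast was -0.58, with the same exact p and adjusted p (0.0286 and 0.0686), and RC 3 was the highest RC array at 0.69 against 0.09 to 0.24 for the other 3.

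Kdm5b and Kdm5c remove methyl groups from lysine 4 of histone H3, a mark of active promoters. Kdm5b read 7.82, 7.84, 7.77 and 7.76 on CC arrays and 7.75, 7.81, 7.77 and 7.72 on RC arrays (probe set 10350046). On DC arrays it read 8.19, 8.16, 8.15 and 7.69. DC 1 to DC 3 stood above the other 9 arrays and DC 4 below all of them, and DC minus CC was 0.25 ± 0.10 (SE), adjusted p = 0.166. Kdm5b was the 1 gene of the 10 whose mean lay below the median of all values, and no detection calls were used here. Kdm5c, encoded on the X chromosome, read 10.14 to 10.26 on CC, 9.91 to 10.28 on DC and 9.86 to 10.16 on RC arrays (probe set 10602644). Its DC minus CC difference was -0.07 ± 0.09 (SE), adjusted p = 0.628, with a 95% interval from -0.26 to 0.12. Without DC 4 the difference was 0.00078 (limma adjusted p = 0.997). The difference between the 2 genes' changes was 0.32 (95% interval 0.15 to 0.49, exact permutation p = 0.0286, adjusted p = 0.0686), with no overlap between CC and DC arrays. From DC to RC it was -0.22 (exact permutation p = 0.0857, adjusted p = 0.171).

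Kdm6b, which acts on trimethylated lysine 27 of histone H3, the mark laid by Polycomb complexes, read 9.16, 9.32, 9.27 and 9.27 on CC arrays (probe set 10387372). It read 9.56, 9.43, 9.52 and 9.21 on DC arrays and 9.19, 9.15, 9.16 and 9.21 on RC arrays. DC 1 to DC 3 were higher than all other arrays, while DC 4 lay within the CC range. DC minus CC was 0.17 ± 0.07 (SE), adjusted p = 0.215, and RC minus DC was -0.26 ± 0.07 (SE), adjusted p = 0.117. The DC and RC arrays of Kdm6b did not overlap, by a margin under the second decimal.

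**Figure D2:**
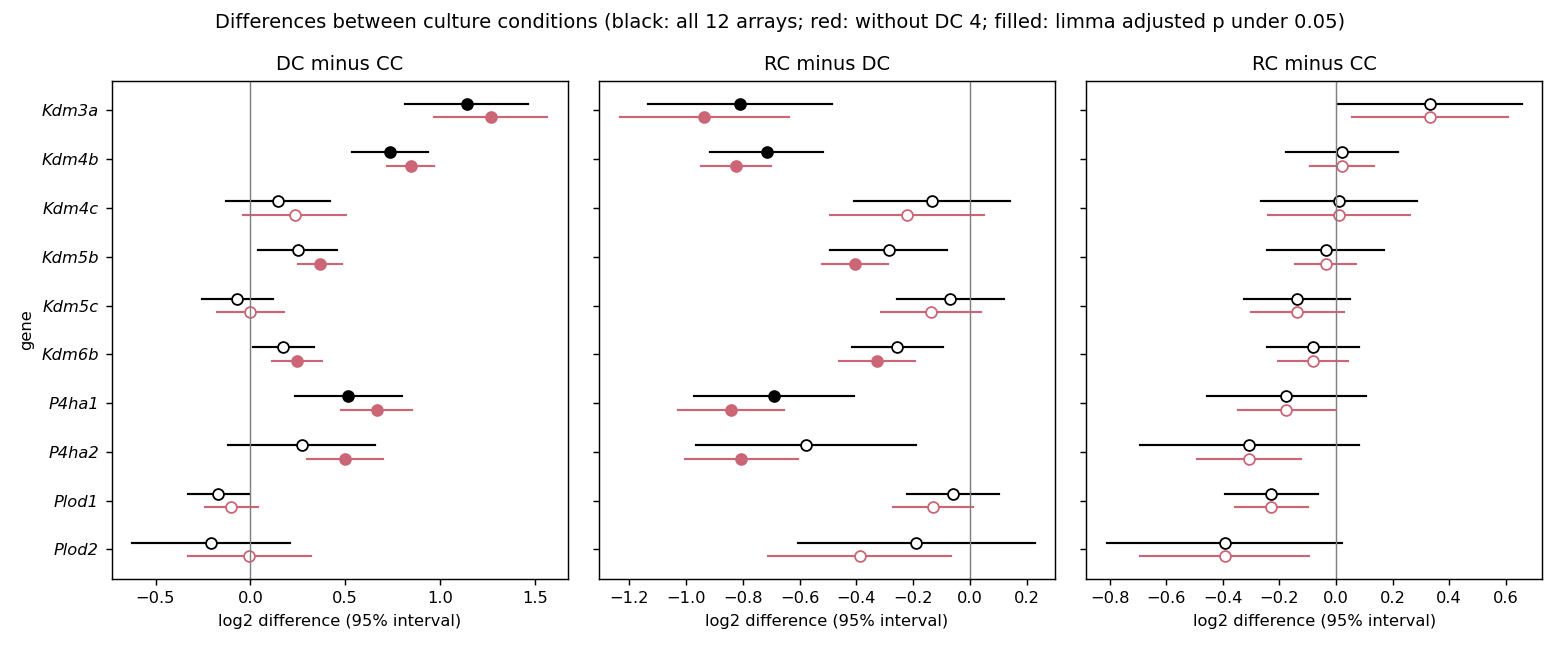
Log2 difference with its 95% interval (horizontal axes) for each of the 10 genes in DC minus CC, RC minus DC and RC minus CC, from all 12 arrays (black) and without DC 4 (red); filled points had a limma adjusted p under 0.05. All 10 differences from DC to RC are negative, 3 of them filled in black and 6 in red.

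P4ha1 and P4ha2 are the catalytic subunits of collagen prolyl 4-hydroxylase, which stabilises the collagen triple helix. P4ha1 read 10.99, 10.90, 11.01 and 10.998 on CC arrays (probe set 10363350). It read 11.60, 11.51, 11.81 and 11.04 on DC arrays and 10.71, 10.84, 10.71 and 10.94 on RC arrays. The DC arrays lay above all CC and RC arrays, DC 4 only narrowly, and 3 of the 4 RC arrays lay below the CC range. DC minus CC was 0.52 ± 0.13 (SE), a 1.43-fold rise with an adjusted p of 0.0319. This call was lost when any 1 of the 4 CC arrays, DC 1, DC 2 or DC 3 was left out (adjusted p up to 0.0923), when the arrays were centred on a common median (0.0817) and when only CC and DC arrays entered the fit (0.0568). From DC to RC P4ha1 fell by 0.69 on the log2 scale (SE 0.13, adjusted p = 0.0122), a call lost without RC 1 (0.0507) and when only the DC and RC arrays entered the fit (0.0742).

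P4ha2 read 10.14, 10.12, 10.12 and 10.07 on CC arrays (probe set 10376074). It read 10.53, 10.53, 10.78 and 9.70 on DC arrays and 9.71, 9.85, 9.66 and 9.99 on RC arrays. DC 1 to DC 3 stood above every other array, DC 4 lay among the RC arrays, and all RC arrays lay below the CC range. DC minus CC was 0.27 ± 0.18 (SE), adjusted p = 0.369, and RC minus DC was -0.58 ± 0.18 (SE), adjusted p = 0.145. The within-array difference of P4ha1 and P4ha2 was 0.79 to 0.92 on CC arrays and 0.98 to 1.34 on DC arrays, the highest being DC 4. P4ha1 thus changed by 0.25 more than P4ha2 in DC against CC (95% interval 0.08 to 0.41, exact permutation p = 0.0286, adjusted p = 0.0686). The within-array difference was 0.98 to 1.07 on DC 1 to DC 3, and without DC 4 P4ha1 rose by 0.67 and P4ha2 by 0.50. In RC against CC the contrast was 0.13, with the same exact p and adjusted p (0.0286 and 0.0686) and a 95% interval by limma from -0.03 to 0.29.

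Plod1 and Plod2 hydroxylate collagen lysines, which carry crosslinks and sugars, and Plod2 prefers the ends of the chains. Plod1 read 10.53, 10.53, 10.55 and 10.59 on CC arrays, 10.45, 10.36, 10.54 and 10.17 on DC arrays, and 10.27, 10.38, 10.26 and 10.38 on RC arrays (probe set 10518408). Its RC arrays all lay below the CC arrays, and RC minus CC was -0.23 ± 0.07 (SE), adjusted p = 0.268. Plod2 read 10.85, 10.76, 10.92 and 10.89 on CC arrays, 10.63, 10.78, 11.14 and 10.05 on DC arrays, and 10.56, 10.55, 10.07 and 10.68 on RC arrays (probe set 10587829). Its DC arrays ranged more widely than those of CC, with DC 3 highest of all 12 arrays and DC 4 lowest. DC minus CC was -0.17 ± 0.07 (SE) for Plod1 and -0.21 ± 0.19 (SE) for Plod2, with adjusted p of 0.231 and 0.504, and without DC 4 they were -0.10 and -0.0052. The changes of the 2 genes differed by 0.04 in DC against CC (95% interval -0.28 to 0.35, exact permutation p = 0.83), and by -0.09 without DC 4.

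**Figure D3:**
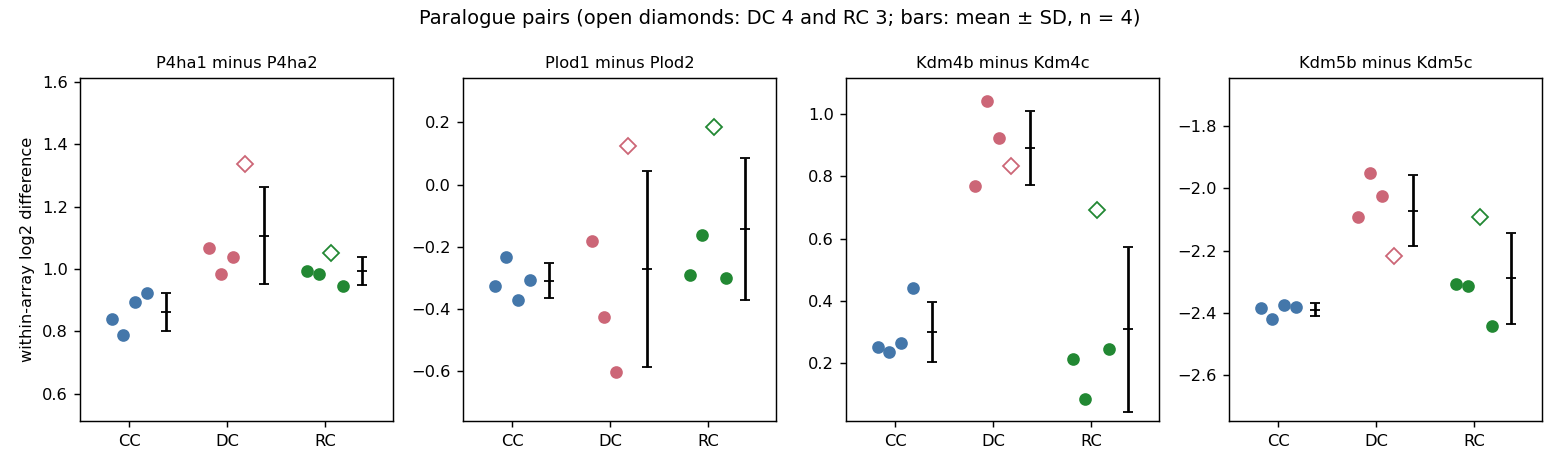
Within-array log2 difference of each pair of related genes (vertical axes) on the 12 arrays, by condition; points are single arrays (open diamonds DC 4 and RC 3) and bars are mean ± SD (n = 4). CC and DC points do not overlap for Kdm4b minus Kdm4c, Kdm5b minus Kdm5c and P4ha1 minus P4ha2, and they overlap for Plod1 minus Plod2.

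Groups without overlap were as follows. DC lay above CC for 3 of the 10 genes (Kdm3a, Kdm4b and P4ha1), where 7.29 percent of all rows did so. RC lay below DC for 4 (the same 3 and Kdm6b), where 3.23 percent of all rows did so. RC lay below CC for 3 of the 4 collagen hydroxylases (P4ha2, Plod1 and Plod2) and for 0 of the 6 demethylases, where 5.45 percent of all rows did so. For these 3 hydroxylases RC minus CC was -0.31, -0.23 and -0.39, none of them called by limma (adjusted p 0.682, 0.268 and 0.589). For Kdm3a RC minus CC was 0.33 ± 0.15 (SE), adjusted p = 0.533, with a 95% interval from 0.01 to 0.66.

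DC 4 was the lowest DC array for all 10 genes. Over the 16938 rows within the 10 genes' range of levels, DC 4 was the lowest DC array in 32.4 percent. Its distance below the mean of the other DC arrays was largest for P4ha2 (-0.91), Plod2 (-0.80), P4ha1 (-0.60) and Kdm3a (-0.51), and smallest for Kdm5c and Plod1 (-0.28 each). Kdm3a stood 0.76 above the CC mean on DC 4 and 1.27 on the other DC arrays. For Kdm4b these were 0.41 and 0.85, and for P4ha1 0.06 and 0.67. DC 1 to DC 3 all lay above every CC array for 7 of the 10 genes, and DC 4 did so for 3. On DC 4, Plod2, P4ha2, Plod1 and Kdm5c stood at -0.81, -0.41, -0.37 and -0.27 from the CC mean. Kdm4c, Kdm5b and Kdm6b stood there at -0.13, -0.10 and -0.04. Plod2, Plod1 and Kdm5c had not risen on the other DC arrays either (-0.0052, -0.10 and 0.00078 from the CC mean).

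DC 4 also stood low on other rows that rose. Among 835 rows called higher in DC by a fit that left DC 4 out, DC 4 reached a median of 62.4 percent of the difference and was the lowest DC array in 65.5 percent. Among 1219 rows called lower by that fit, it reached 104 percent and was the highest DC array in 23.0 percent. The same figures for rows called higher without DC 1, DC 2 or DC 3 were 43.4, 22.9 and 21.4 percent lowest. For rows called lower, DC 1 was the highest DC array in 60.6 percent and DC 3 in 49.3 percent, so those arrays stood apart on lower rows more often than DC 4. What set these arrays apart was not tested.

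Without DC 4, 6 of the 10 genes were called higher in DC than in CC, where 2.35 percent of all rows were, and the same 6 were called lower in RC than in DC, where 1.29 percent of all rows were. The 6 were Kdm3a (1.27 ± 0.14 SE, adjusted p = 0.00022), Kdm4b (0.85 ± 0.06), P4ha1 (0.67 ± 0.09), P4ha2 (0.50 ± 0.09, adjusted p = 0.0069), Kdm5b (0.37 ± 0.05, adjusted p = 0.0016) and Kdm6b (0.25 ± 0.06, adjusted p = 0.0366). Among the 12 fits that each left out 1 array, Kdm5b, Kdm6b and P4ha2 were called in DC against CC only in the fit without DC 4. From DC to RC the 6 differed by -0.94 (Kdm3a) to -0.33 (Kdm6b). Kdm4c, Kdm5c, Plod1 and Plod2 were not called without DC 4 either, at 0.23, 0.00078, -0.10 and -0.0052 in DC against CC (adjusted p = 0.407, 0.997, 0.494 and 0.989) and -0.22, -0.14, -0.13 and -0.39 in RC against DC (adjusted p = 0.654, 0.695, 0.565 and 0.318). Without RC 3 alone, Kdm3a stood 0.49 ± 0.11 (SE) higher in RC than in CC (adjusted p = 0.0685), Plod2 differed there by -0.26 (adjusted p = 0.748), and the called genes were the same 3 in both comparisons with DC. Without RC 3 and DC 4 together, a choice made after seeing the data, Kdm3a was also called higher in RC than in CC (0.49 ± 0.05 SE, adjusted p = 0.0035), where 0.571 percent of all rows were.

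**Figure D4:**
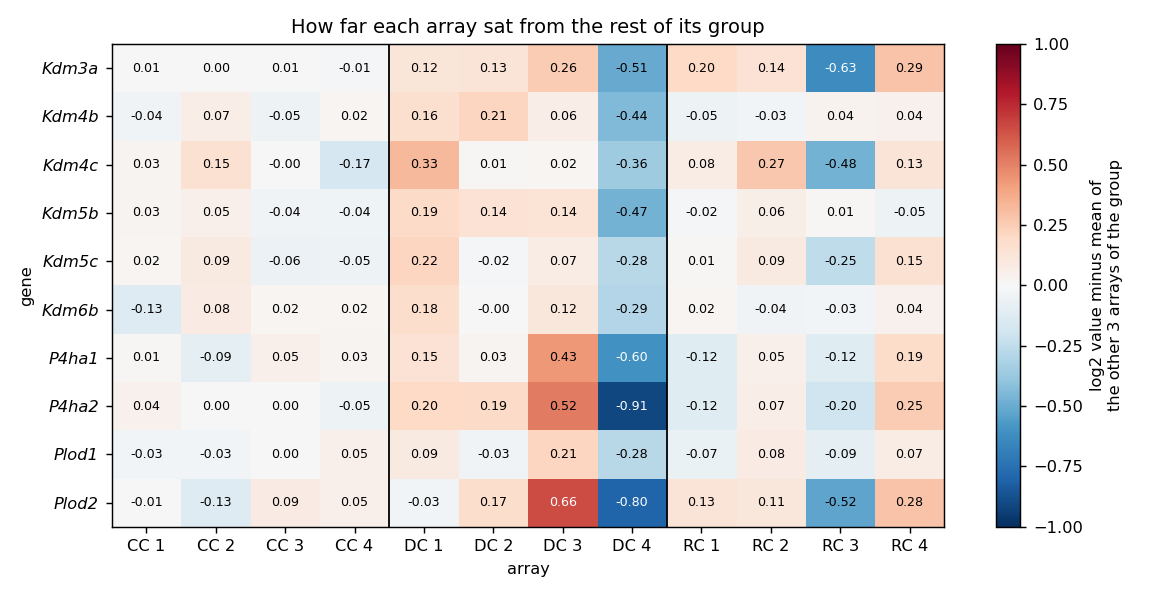
Log2 value of each gene (rows) on each of the 12 arrays (columns) minus the mean of the other 3 arrays of its condition, printed in each cell and coloured from blue (below) to red (above). The DC 4 column is below 0 for all 10 genes, from -0.28 for Kdm5c and Plod1 to -0.91 for P4ha2.

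Promoter windows, 250 bases before to 50 after a RefSeq transcript start (GRCm38.p6), were found for 7 of the 10 genes, in 10 windows. They were searched on both strands for ACGTG and GCGTG, the core letters of a hypoxia response element, to which HIFs bind. ACGTG occurred in 4 of 10 windows (40 percent), against 19.6 percent of all 32851 windows, and GCGTG in 6 of 10 (60 percent), against 32.4 percent. Either of the 2 occurred in 6 of 10 windows (60 percent), against 43.8 percent of all windows. Kdm3a gave 3 of the 10 windows and Kdm4c 2, and the difference of these shares was not tested. The windows of Kdm3a and P4ha1, which were called, and of P4ha2 and Plod1, which were not, are shown 5′ to 3′ on the gene's strand, with each match in capitals. They lie at chr6:71632868-71633167 (minus strand) for Kdm3a, chr10:59323046-59323345 (plus) for P4ha1, chr11:54100674-54100973 (plus) for P4ha2 and chr4:147936727-147937026 (minus) for Plod1.
Kdm3a: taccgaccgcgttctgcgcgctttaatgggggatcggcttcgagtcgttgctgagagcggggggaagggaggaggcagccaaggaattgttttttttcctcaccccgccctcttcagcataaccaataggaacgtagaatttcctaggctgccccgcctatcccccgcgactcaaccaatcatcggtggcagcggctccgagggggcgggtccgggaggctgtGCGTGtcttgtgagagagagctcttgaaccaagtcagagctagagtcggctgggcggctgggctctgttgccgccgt
P4ha1: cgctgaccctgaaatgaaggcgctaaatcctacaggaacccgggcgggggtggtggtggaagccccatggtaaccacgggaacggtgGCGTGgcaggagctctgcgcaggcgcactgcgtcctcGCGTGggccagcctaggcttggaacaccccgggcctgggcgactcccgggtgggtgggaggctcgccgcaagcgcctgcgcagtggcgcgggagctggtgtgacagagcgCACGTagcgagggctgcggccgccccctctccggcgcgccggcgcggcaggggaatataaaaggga
P4ha2: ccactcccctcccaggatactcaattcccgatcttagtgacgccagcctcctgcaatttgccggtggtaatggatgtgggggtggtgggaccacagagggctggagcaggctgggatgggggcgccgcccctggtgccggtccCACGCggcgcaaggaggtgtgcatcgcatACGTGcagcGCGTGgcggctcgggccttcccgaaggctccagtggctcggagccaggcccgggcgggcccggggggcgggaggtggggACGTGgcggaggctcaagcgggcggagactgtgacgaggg
Plod1: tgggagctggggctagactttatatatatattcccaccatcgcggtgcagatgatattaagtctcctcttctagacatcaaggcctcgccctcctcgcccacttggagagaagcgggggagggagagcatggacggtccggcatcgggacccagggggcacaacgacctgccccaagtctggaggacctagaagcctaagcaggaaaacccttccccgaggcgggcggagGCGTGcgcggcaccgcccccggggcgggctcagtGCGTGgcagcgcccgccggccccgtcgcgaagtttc
The Kdm3a window held a single GCGTG, whose first base lies at -27 from the start. P4ha1 held GCGTG at -163 and -126 and, read on the other strand, ACGTG at -16. P4ha2 held ACGTG at -78 and 11 and GCGTG at -107 (other strand) and -69. Plod1 held GCGTG at -20 and 15. Of the 6 genes with a match, Kdm3a and P4ha1 were called in DC against CC and Kdm4c, Kdm5b, P4ha2 and Plod1 were not. Kdm4b, which was called, and Kdm6b and Plod2, which were not, had no window and were not searched. The other 2 Kdm3a windows and the single Kdm5c window held neither motif, and the Kdm5b window held 1 of each. One of the 2 Kdm4c windows held ACGTG at 4 places, read from both strands of 2 palindromes, and GCGTG at 2. A match is a run of letters, not a measured binding site.

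Related oxygen-using enzymes were read from lists. For comparison with these and the further lists below, 2.31 percent of all rows were called higher and 4.32 percent lower in DC against CC. In RC against DC the shares were 1.45 and 1.18 percent, and in RC against CC 0.121 and 0.675 percent. Of 17 other JmjC demethylases and hydroxylases, 1 rose in DC against CC, 1 fell in RC against DC and 0 were called in RC against CC (0 there at an unadjusted p under 0.05). The 1 gene was Jmjd6, a JmjC protein lysyl hydroxylase, which rose by 0.57 ± 0.07 (SE, adjusted p = 0.00042) and then fell by 0.54 on the log2 scale (SE 0.07, adjusted p = 0.0013). The close relatives of Kdm3a and of Kdm6b were not called: Kdm3b differed by 0.14 (adjusted p = 0.30) and Kdm6a by -0.09 (adjusted p = 0.66) in DC against CC. Kdm7a differed by 0.29 with all arrays (limma adjusted p = 0.13) and was called higher in DC than in CC without DC 4. The list median was 0.02, against 0.04 for all rows. The FAD-dependent demethylases Kdm1a and Kdm1b, which do not use 2-oxoglutarate, differed by 0.13 and -0.19 and were not called (adjusted p = 0.32 and 0.20, 1 of 2 at an unadjusted p under 0.05).

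Of 17 other collagen-modifying genes measured, 4 fell and 0 rose in DC against CC, 13 were not called, and the list median was -0.09. P3h2, a prolyl 3-hydroxylase, fell by 1.03 on the log2 scale (SE 0.09, adjusted p = 2.2e-05). P4ha3, the third catalytic subunit of prolyl 4-hydroxylase, fell by 0.39 (SE 0.07, adjusted p = 0.0051). P3h1 and Crtap, which work together in a prolyl 3-hydroxylase complex, fell by 0.39 (SE 0.08, adjusted p = 0.014) and 0.47 (SE 0.12, adjusted p = 0.033). The call of P3h1 was lost without CC 1 or DC 2, and that of Crtap without any 1 of the CC arrays, DC 2, DC 4 or RC 1. In RC against DC, P3h2 and P4ha3 rose, by 0.69 and 0.49 (adjusted p = 0.00098 and 0.0026). P4hb, the subunit that P4ha1 and P4ha2 share, differed by -0.12 in DC against CC (adjusted p = 0.38), and Plod3 by -0.28 (adjusted p = 0.12). In RC against CC 0 of 17 were called by limma, and 7 had an unadjusted p under 0.05. Without DC 4, P3h4 (-0.29, limma adjusted p = 0.047) and Plod3 were called lower there, and P3h4 was called lower in RC than in DC.

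Of 22 collagen chains, the substrates of these hydroxylases, Col8a1 alone was called in DC against CC: it fell by 0.84 on the log2 scale (SE 0.12, adjusted p = 0.00076). In RC against DC it rose by 0.57 (SE 0.12, adjusted p = 0.020), a call lost without DC 2, RC 1 or RC 2. Differences were above 0 for 19 of the 22 chains, with a list median of 0.18 and 0 of them called higher. Fibroblast, endothelial and immune, and exocrine and ductal markers were above 0 in 10 of 10, 8 of 8 and 5 of 5, with medians of 0.17, 0.15 and 0.13. The median over all rows at or below the median of all values was 0.08, and over rows above it -0.02. The part of this shift in the values of the collagen chains was not tested. RC against CC gave 0 calls among the 22 chains by limma and 1 at an unadjusted p under 0.05.

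The HIF hydroxylases, which use oxygen to mark the HIF alpha subunits, gave 2 of 4 called higher in DC against CC. Egln3 rose by 0.95 ± 0.20 (SE, adjusted p = 0.0139) and Egln1 by 0.65 ± 0.15 (SE, adjusted p = 0.0193), the latter a call lost without CC 1, CC 4 or DC 2. On DC 1 to DC 4, Egln3 read 9.23, 9.09, 9.46 and 8.21 and Egln1 9.35, 9.60, 9.84 and 8.93, so DC 4 was the lowest DC array for both, as it was for the 10 genes. In RC against DC, Egln3 fell by 0.89 on the log2 scale (SE 0.20, adjusted p = 0.039), and that call was lost in 10 of 12 fits that left out 1 array. Without DC 4, Egln1 was called lower there as well as Egln3.

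**Figure D5:**
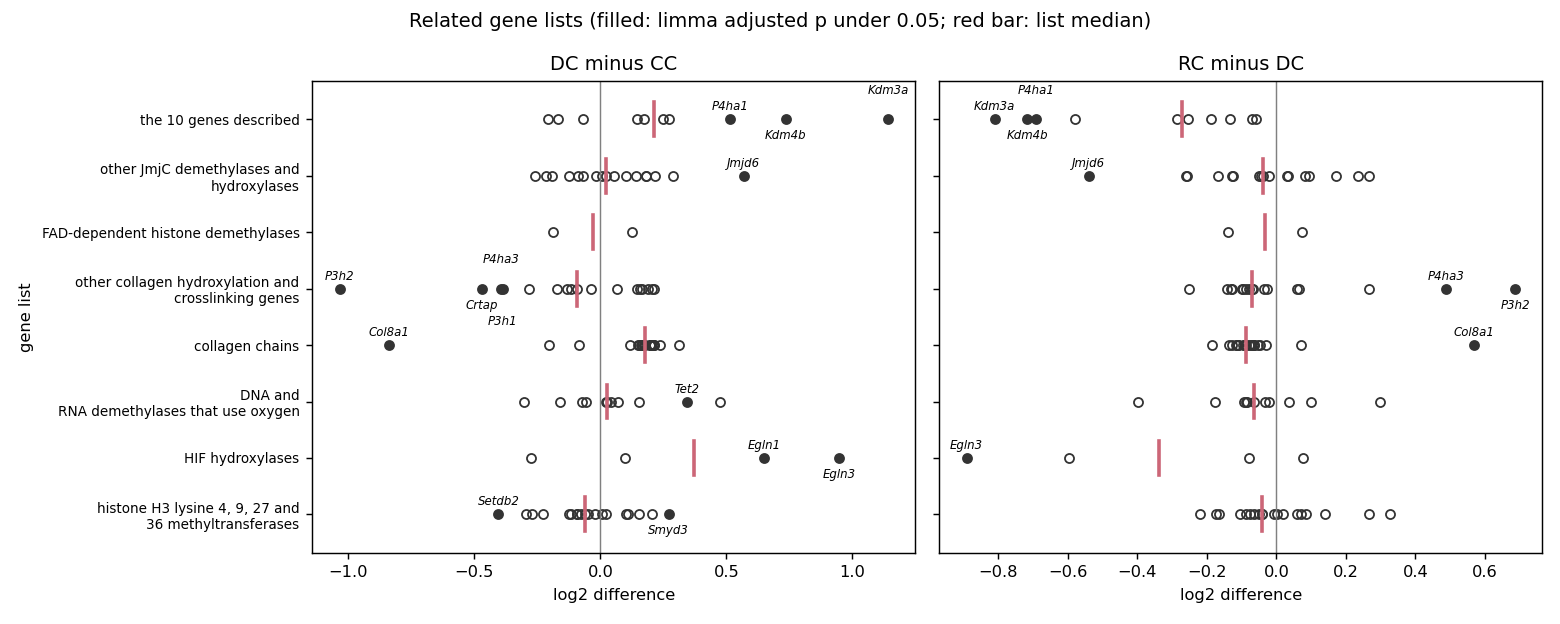
Log2 difference (horizontal axes) of each measured gene in the 10 genes described and in 7 related lists (rows), in DC minus CC and RC minus DC; filled points had a limma adjusted p under 0.05 and are named, and red bars are medians. Filled points to the right in DC minus CC are Kdm3a, Kdm4b, P4ha1, Jmjd6, Egln1, Egln3, Tet2 and Smyd3. Those to the left are P3h2, P4ha3, P3h1, Crtap, Col8a1 and Setdb2.

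The genes whose profile over the 12 arrays was most like that of each called gene were looked for among 18253 genes. Kdm4b was most like Cdh22 (Pearson r = 0.983), Acss2 (0.978), which makes acetyl-CoA from acetate, and Pfkfb3 (0.977), a regulator of glycolysis. Kdm3a was most like Prelid2 (0.974), Ntrk3 (0.969) and Insig1 (0.967), a regulator of sterol synthesis. P4ha1 was most like Atp7b (0.971), a copper transporter, Anks1b (0.965) and Sdk1 (0.958). These r describe 12 points that share 3 conditions, the same arrays and DC 4, and carry no test. All 9 genes had a higher mean in DC than in CC, by 0.26 for Anks1b to 2.19 for Prelid2.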

How the data were processed

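Total RNA of 12 Min6 cultures had been amplified with a whole-transcript kit and hybridised to gene arrays, per the labels' protocols. The authors deposited 1 log2 level per array for each of 35556 probe sets. That the unit is log2 was read from the range, 3.69 to 14.5. No further normalization was applied to these values (the authors' software, normalization and build: not given in the sources used here). Probe sets were named from the platform's annotation table, through the 21789 rows with 1 symbol. Each condition had 1 mean in a linear model over the 12 arrays, run in limma 3.58.1 under R 4.3.3 (9 residual degrees of freedom), with two-sided p-values adjusted by Benjamini-Hochberg over all 35556 rows. No filter on low values was used. The fit was tested on simulated data. Related genes were compared by exact two-sided permutation of within-array differences, 12 contrasts in all. The text names all 10 genes, up to 4 called genes per list and comparison, and the 3 most alike genes of the 3 genes with the smallest p. Where no gene of a list was called, the 2 of smallest p were picked, and only some of these are named. A few relatives were named after their values were seen: Kdm3b, Kdm6a, P4hb and Plod3. Kdm7a and Cd68 were named for their calls without DC 4. The genes and lists were chosen with earlier results of these data known. The number of arrays limits the precision. Promoter letters come from RefSeq, GRCm38.p6.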

Additional observations from a re-analysis of the deposited data

Results flagged for a closer look

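In 4 of 102 groups of 4 arrays, 1 array stood apart from the other 3. The groups were those of the 10 genes and of 24 genes picked from the lists, in 3 conditions. The measure was the gap to the nearest neighbour divided by the range of the group, against Dixon's 95% critical value for 4 samples. Chance gives about 5 percent of groups. For Kdm3a in RC the ratio was 0.842, with RC 3 at 9.32 and the others at 9.90 to 10.00. For Kdm5b in DC it was 0.921, with DC 4 at 7.69 and the others at 8.15 to 8.19. For Alkbh5, an RNA demethylase, in RC it was 0.839, with RC 2 at 10.42 and the others at 10.59 to 10.62. For Egln3 in RC it was 0.872, with RC 2 at 7.86 and the others at 8.17 to 8.22.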

How the results depend on the processing

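The 3 calls in DC against CC became 6 without DC 4 and RC 3. When each array was left out in turn they became 2 to 6, and the 6 came without DC 4. They became 2 with arrays centred on a common median and 2 with only the 2 groups in the fit. Array weights gave 4, adding Kdm5b (limma adjusted p = 0.036). The 3 calls in RC against DC became 1 (Kdm4b) with only the 2 groups in the fit, 6 with array quality weights, 6 without DC 4 and RC 3, and 2 to 6 without 1 array. Quantile normalization gave 4 there, adding Kdm6b (limma adjusted p = 0.030). The 0 calls in RC against CC became 2 with array weights (Kdm3a higher, Plod1 lower) and 1 without DC 4 and RC 3, and stayed at 0 without any 1 array. Correlations between deviations of same-numbered arrays ran from -0.36 to 0.47. They were above 0.1 for all 3 pairs of number 1 but not for every pair, so the numbers were not taken to pair the samples. With the replicate number as a block the calls were 2, 3 and 0, and P4ha1 in DC against CC had an adjusted p of 0.071. By limma in place of the permutation test, 5 contrasts passed the threshold: 0.25 for P4ha1 minus P4ha2, 0.59 and -0.58 for Kdm4b minus Kdm4c, and 0.32 and -0.22 for Kdm5b minus Kdm5c. In the permutation test itself no contrast passed the threshold, with a lowest adjusted p of 0.0686. Over all rows, counts of calls ran from 1549 to 4840 around 2360 in DC against CC, from 462 to 6413 around 936 in RC against DC and from 57 to 2818 around 283 in RC against CC, the highest with array weights each time. Centring arrays on a common median changed the split in DC against CC from 823 higher and 1537 lower to 502 and 1698. Of the alternative values of the 10 genes, 554 kept direction and side of the threshold, 20 gained a call, 13 lost one and 10 changed sign, none of these 10 called. The sign changes were: with centring, Kdm4b to -0.026 and Kdm4c to -0.036 in RC against CC; with quantile normalization Kdm5c to 0.0036, and without DC 4 (with or without RC 3) to 0.00078, in DC against CC; with array weights Kdm5c to 0.0051 in RC against DC. Over fits without 1 array, Kdm4c in RC against CC ran from -0.057 to 0.13 and Kdm5c in DC against CC from -0.12 to 0.00078. Of the list genes, uncalled values in RC against CC changed sign for Kdm1a (0.026 with quantile normalization, 0.072 with array weights, 0.011 without DC 4 and RC 3, -0.0499 to 0.037 without 1 array) and Kdm4d (-0.0076 with array weights). Without 1 array, the contrast of Plod1 and Plod2 in DC against CC ran from -0.094 to 0.15, and that of Kdm4b and Kdm4c in RC against CC from -0.12 to 0.085. The choice among several rows of a gene did not arise, as each of the 10 genes had 1. With only rows above the median level tested, Kdm5b was left out. DC 4 limits what can be said of Kdm5b, Kdm6b and P4ha2, RC 3 of Kdm3a in RC, and signal over background is unknown.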

Other observations

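DNA and RNA demethylases of the oxygen-using class were mostly not called. Of 11 measured, Tet2, which oxidises 5-methylcytosine, rose in DC against CC by 0.34 ± 0.08 (SE, limma adjusted p = 0.0195), a call lost without CC 1, CC 3, CC 4 or DC 2. Without DC 4, Alkbh5 was also called higher in DC than in CC. In RC against DC 0 of 11 were called (2 at an unadjusted p under 0.05): Alkbh8 differed by 0.30 and Alkbh5 by -0.40 (adjusted p = 0.147 and 0.273). In RC against CC 0 of 11 were called by limma (1 at an unadjusted p under 0.05), with Tet2 at 0.26 (adjusted p = 0.217).

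Of 19 histone H3 methyltransferases measured, the enzymes opposite to the demethylases, 1 rose and 1 fell in DC against CC. Of all rows, 2.31 percent were called higher and 4.32 percent lower there. Smyd3 rose by 0.27 ± 0.06 (SE, adjusted p = 0.0179), a call lost without CC 1, CC 4 or DC 3. Setdb2 fell by 0.40 on the log2 scale (SE 0.10, adjusted p = 0.0374), a call lost in 9 of 12 fits that left out 1 array. In RC against DC and RC against CC 0 of 19 were called by limma, with 4 and 2 at an unadjusted p under 0.05. The lowest p in RC against DC was that of Suv39h2, at 0.33 ± 0.08 (SE, adjusted p = 0.0668). Without DC 4, Suv39h2 was called higher there (0.40, limma adjusted p = 0.016) and was called lower in DC than in CC.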
